A study of Mus musculus with 12 samples.

Results

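The serum amyloid, calprotectin and neutrophil genes are 10 genes of the acute phase and of granulocytes: Saa1, Saa2, Saa3, S100a8, S100a9, Lcn2, Hp, Stfa1, Stfa3 and Ngp. They were chosen by gene name as printed in the array files, with values of these same arrays already known, so their folds and levels are given as a description with no test. The 10 genes are among 27373 gene names on the array, and 11 of its 41174 probes carry their names (2 for Saa1 and 1 for each other gene). The expression of these genes was measured by DNA microarray in whole back skin of male C57BL/6J mice, 8 weeks old at purchase, that were shaved and then received 200 μL of a solution on the back every day. MXD mice received 3% minoxidil, the hair growth drug, N-CE mice received a 10% cell extract of the cactus Notocactus ottonis, and VC mice received the vehicle of propylene glycol, ethanol and water. Skin was taken after 1, 2 and 3 weeks (1W, 2W and 3W). The RNA of 6 mice made up a single pool for each of the 9 groups. A treated pool shared 2 arrays with the vehicle pool taken in the same week, once in each dye orientation (Cy3 and Cy5), which gives 12 arrays and 6 comparisons. The spread between the 2 arrays is technical and holds nothing of the variation between mice.

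Serum amyloid A proteins travel with high-density lipoprotein and are released in the acute phase response. Saa1 and Saa2 are best known from the liver, while Saa3 is made outside the liver by macrophages and epithelia. S100a8 and S100a9 pair to form calprotectin, a protein that withholds zinc and manganese from microbes, and both are abundant in neutrophils and are made by keratinocytes of stressed or wounded epidermis. Stfa1 and Stfa3 belong to the stefin A cluster of mouse chromosome 16, whose products inhibit cysteine cathepsins. Lcn2 (lipocalin 2) binds bacterial siderophores, Hp (haptoglobin) binds free haemoglobin and is made by liver and fat, and Ngp is a granule protein of developing neutrophils. In whole skin a higher signal can come from more cells of a type or from more RNA per cell, and these cannot be told apart here.

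The probes that carry the main values are shown first, since related genes can share bases with them. Each probe has 60 bases, printed 5′ to 3′ in lower case, and positions are those of the array files on mm9. The Saa3 probe A_51_P337308 (chr7:53968031-53968090, minus strand), the S100a8 probe A_51_P256827 (chr3:90473778-90473837, plus strand) and the Saa1 probe A_52_P318673 (chr7:53996070-53996129, minus strand) read as follows, with no capitals.
Saa3: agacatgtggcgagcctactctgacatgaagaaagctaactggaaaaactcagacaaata
S100a8: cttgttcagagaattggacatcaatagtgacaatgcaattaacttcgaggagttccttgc
Saa1: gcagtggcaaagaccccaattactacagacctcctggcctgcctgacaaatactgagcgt
The Stfa1 probe A_51_P132185 (chr16:36285323-36285382, plus strand) and the Stfa3 probe A_51_P504815 (chr16:36450693-36450752, minus strand) cover the same stretch of related transcripts. Capitals mark the bases they share when laid side by side without gaps.
Stfa1: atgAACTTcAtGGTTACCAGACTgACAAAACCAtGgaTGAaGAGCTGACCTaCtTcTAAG
Stfa3: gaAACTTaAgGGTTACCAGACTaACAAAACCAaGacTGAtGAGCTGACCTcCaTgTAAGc
The Stfa1 and Stfa3 probes had 47 of 59 overlapping bases in common, with a longest shared run of 12. The Stfa1 probe also shared 38 of 40 overlapping bases with the probe of BC100530 and 31 of 36 with the probe of Gm5483, both of the same cluster. With the Csta probe A_51_P384894 it shared 24 of 25. The Stfa3 probe shared 35 of 41 with the probe of BC100530 and 30 of 35 with that of Gm5483. Signal of the stefin probes may therefore include related transcripts, which was not tested. The Saa1 and Saa3 probes shared 21 of 58 bases, with no run longer than 2. The other probes were A_51_P361650 for Saa1, A_51_P166886 for Saa2, A_51_P402943 for S100a9, A_51_P510156 for Lcn2, A_51_P235945 for Hp and A_52_P429450 for Ngp. An annotation of mm9 was not used here, so exons are not given.

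At 1W, mean folds of MXD over VC skin ran from 2.33 (Saa1) to 29.1 (Saa3) for 6 of the 10 genes. They were Saa3, S100a8, Stfa1, S100a9, Stfa3 and Saa1. These 6 genes were called higher and none was called lower. A call required that the error-model P of the scanner software fell under 0.01 on each of the 2 arrays, that both pointed the same way, and that the mean fold was above 1.5 or below 0.75. By this rule 0.848% of all gene names were called higher and 0.855% lower in MXD 1W, and nothing is read from the members' count beside it, since these arrays were known when the genes were selected. The median log2 fold (treated/VC) over the 10 genes was 1.69 ± 0.08 (SD over the 2 arrays), beside 0 over all gene names and -0.0016 over the 17533 gene names measured in both groups.

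Saa3, the locally made serum amyloid, had processed signals of 1614 and 1865 in the MXD pool on the 2 arrays and of 60.8 and 58.3 in the VC pool. Both MXD readings lay far above both VC readings. The log2 fold of Saa3 was 4.73 on array 1 and 5.00 on array 2, a mean of 4.86 ± 0.19 or 29.1-fold. It ranked 1 of 17533 measured gene names. The VC signal of Saa3 was close to background, and with normexp background correction the mean was 3.41 on the log2 scale, or 10.6-fold.

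Saa1 was the other serum amyloid called. Its signals were 496 and 495 in MXD and 234 and 193 in VC, which gave log2 folds of 1.08 and 1.36 and a mean fold of 2.33. The second Saa1 probe was dim, being well above background in 1 of 2 MXD readings and in no VC reading of 1W, and it gave a fold of at least 1.01. Saa2, the close relative of Saa1, had signals of 62.7 and 76.7 in MXD and 44.2 and 39.8 in VC. The Saa2 readings did not overlap and the mean fold was 1.65, but the spot P was 0.0867 on array 1, so Saa2 was not called. With normexp the mean fold in MXD 1W was 1.82 for Saa1 and 1.16 for Saa2.

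The calprotectin pair was called together. S100a8 had signals of 4727 and 6654 in MXD and 638 and 896 in VC, with log2 folds of 2.89 on both arrays and a mean of 7.42-fold. S100a9 had signals of 10009 and 13923 in MXD and 1884 and 2282 in VC, with log2 folds of 2.41 and 2.61 and a mean of 5.69-fold. In both genes the lower MXD reading was several times the higher VC reading. S100a8 ranked 7 and S100a9 ranked 12 among the measured gene names.

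Both stefins of the set were called. Stfa1 had signals of 14197.5 and 18467 in MXD and 1972 and 2586 in VC, log2 folds of 2.85 and 2.84, and a mean of 7.17-fold. Stfa3 had signals of 19152 and 24657.5 in MXD and 4208 and 5665 in VC, log2 folds of 2.19 and 2.12, and a mean of 4.45-fold. The arrays of the dye swap differed by far less than the fold in both genes.

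Lcn2, Hp and Ngp stood apart from these 6 genes. Lcn2 had log2 folds of 0.36 and -0.45 in MXD 1W, so the direction turned with the dye. Over the 12 arrays the Cy5 channel of the Lcn2 probe was the higher on 9, with a mean log2 of Cy5 over Cy3 of 0.28. Hp had signals of 16109 and 17326 in MXD and 17388 and 17229 in VC, and log2 folds of -0.11 and 0.01. The Ngp probe was not well above background in any pool of any week, so no fold is given for this granule gene.

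**Figure D1:**
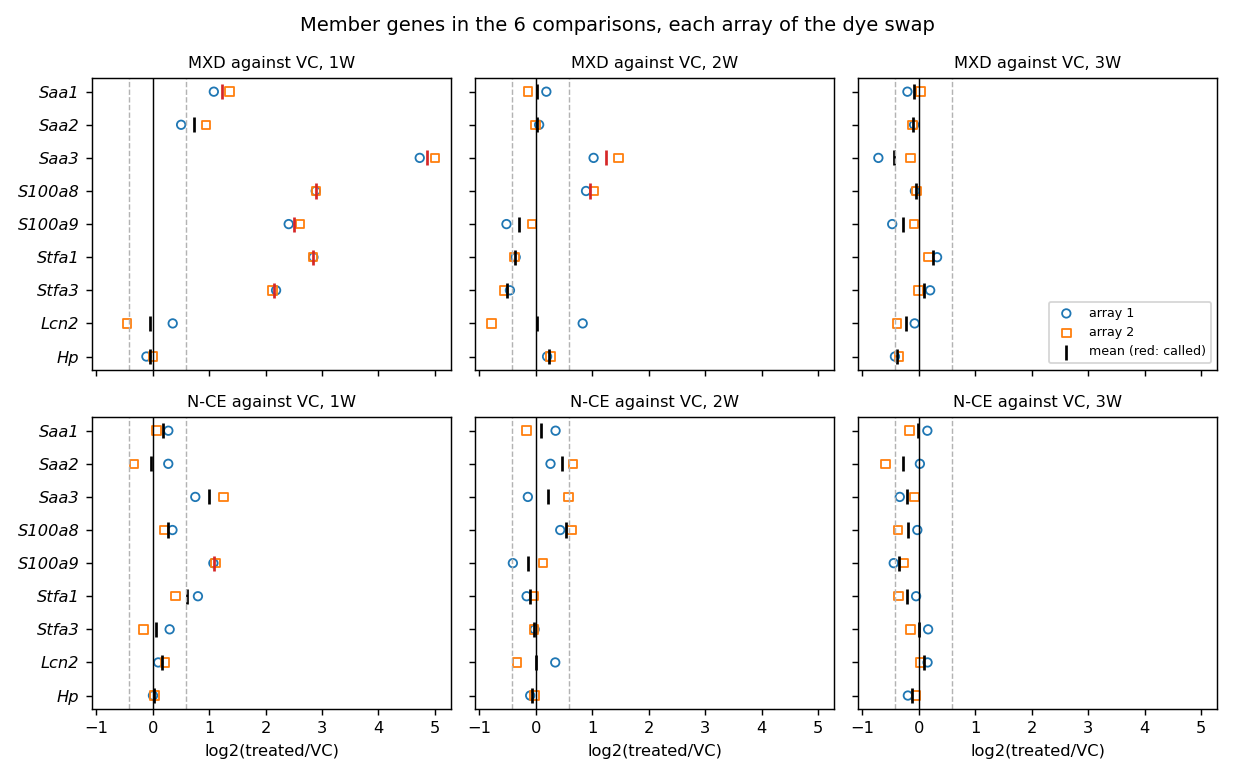
Log2(treated/VC) of 9 member genes (rows) in the 6 comparisons (panels), with array 1 as circles, array 2 as squares and their mean as a bar, red where called. Dashed lines mark folds of 1.5 and 0.75. The bars of 6 genes, from Saa1 at 1.22 to Saa3 at 4.86, are red in MXD 1W, 1 in N-CE 1W (S100a9) and 2 in MXD 2W (Saa3 and S100a8), while Lcn2 points lie on both sides of 0 in MXD 1W and MXD 2W.

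At 1W, N-CE skin differed from VC skin in 1 member by the call rule. S100a9 had signals of 3963 and 4552 in N-CE and 1880.1 and 2107 in VC, with log2 folds of 1.08 and 1.11 and a mean of 2.13-fold. Its partner S100a8 had signals of 775 and 802 in N-CE and 607 and 697 in VC, with log2 folds of 0.35 and 0.20 and a mean of 1.21-fold. The S100a9 difference was many times the spread of its arrays, and the pair did not move together here as it did in MXD 1W. The count of 1 gene called higher stands beside 0.362% of all gene names called higher and 1.85% called lower in N-CE 1W. The median over the 10 genes was 0.22 ± 0.13.

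Saa3 and Stfa1 were near the call in N-CE 1W. Saa3 had signals of 50.1 and 44.3 in N-CE and 29.7 and 18.5 in VC and a mean fold of 2.01, with a spot P of 0.0386 on array 1, and 1 of its VC readings was not well above background. With normexp its mean log2 fold was 0.32. Stfa1 had signals of 3640.1 and 3297 in N-CE and 2087 and 2489 in VC and a mean fold of 1.52, with a spot P of 0.0505 on array 2. The other measured members lay between -0.02 (Saa2) and 0.18 (Saa1) on the log2 scale. MXD 1W and N-CE 1W share their VC pool, so the 2 columns of values are given side by side only.

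Hair follicle markers moved with N-CE 1W. All 4 of the markers Krt71, Krt25, Krt27 and Tchh were called lower, with log2 folds from -3.06 to -2.72, and the log2 of their summed level was 14.4 to 14.9 in N-CE 1W and 16.9 to 17.5 in VC 1W. Skeletal muscle markers moved with MXD 1W, where Ckm, Acta1 and Myh4 were called lower with log2 folds from -1.10 to -0.79. Their summed level was 15.7 to 16.1 in MXD 1W and 16.6 to 16.9 in VC 1W. The part of either in the members' values was not tested.

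At 2W, Saa3 and S100a8 were called higher in MXD skin and no member was called lower. With normexp the mean fold of Saa3 was 1.41, below the 1.5 limit, so that its call was lost. By normexp with the fold limit on each array and no P, S100a8 (1.80-fold) was the 1 member higher. Stfa3 then passed the lower limit at 0.69-fold, as it also did with the deposited ratios when no P was required. Saa3 had signals of 197 and 141 in MXD and 96.6 and 51.0 in VC, log2 folds of 1.02 and 1.47, and a mean of 2.37-fold. S100a8 had signals of 4158 and 3199.9 in MXD and 2243 and 1569 in VC, log2 folds of 0.89 and 1.03, and a mean of 1.94-fold. On these 2 arrays the MXD readings of both genes lay above the VC readings. Over all 4 normalized readings of the VC 2W pool, the Saa3 levels overlapped, with MXD from 6.90 and VC up to 6.96, and those of S100a8 did not. The 2 genes called stand beside 4.26% of all gene names called higher and 6.87% called lower in MXD 2W, the comparison with the most calls.

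Markers of several cell types moved with MXD 2W. All 4 hair follicle markers were called higher, with log2 folds from 1.08 to 1.42, and the log2 of their summed level was 17.9 in both MXD readings and 16.4 to 17.6 in VC. All 3 skeletal muscle markers were called lower, with log2 folds from -1.46 to -1.36 and a summed level of 14.9 to 15.7 in MXD and 16.5 to 16.8 in VC. Of the keratinocyte markers, Krt10, Krt1 and Lor were called lower (3 of 5), and 2 markers each of fibroblasts (of 4), adipocytes (of 3) and macrophages (of 4) were called lower. The summed level of the 8 neutrophil markers was 9.26 to 9.31 in MXD 2W and 9.34 to 9.37 in VC 2W. Of these 8 markers, 1 was well above background in every MXD 2W reading and 3 in every VC 2W reading. The sums also hold the offset that background correction adds to dim markers, so neutrophil content is not read from them. The part of all these cell types in the members' values was not tested.

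S100a9 was not called with its partner in MXD 2W. Its log2 folds were -0.52 and -0.06, a mean of 0.82-fold, against 0.96 ± 0.10 on the log2 scale for S100a8. The stefins also lay on the other side of 0, with log2 folds of -0.36 and -0.37 for Stfa1 and of -0.46 and -0.56 for Stfa3. Stfa3 was near the call, with a mean fold of 0.70 and a spot P of 0.0282 on array 1. Lcn2 again turned its direction with the dye, and its log2 folds were 0.83 and -0.79, from signals of 271 and 91.4 in MXD and 152 and 158 in VC. The median over the 10 genes was 0.02 ± 0.11.

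No member was called in N-CE 2W, MXD 3W or N-CE 3W. The shares of all gene names called higher and lower were 0.0806% and 0.0513% in N-CE 2W, 0.187% and 0.183% in MXD 3W, and 0.143% and 0.147% in N-CE 3W. The highest member in N-CE 2W was S100a8, with log2 folds of 0.43 and 0.63 from signals of 2290.3 and 2516 in N-CE and 1696 and 1622 in VC. In MXD 3W, Hp had signals of 18582 and 18489 in MXD and 24936 and 23601 in VC, with log2 folds of -0.42 and -0.35 and a mean of 0.76-fold. Saa3 had log2 folds of -0.72 and -0.15 in MXD 3W. The medians over the 10 genes were -0.01 ± 0.02, -0.16 ± 0.06 and -0.16 ± 0.10 in these 3 comparisons.

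The level of each gene was followed over the 9 pools as the log2 signal of a single channel after background correction and normalization. A treated pool has 2 readings and a VC pool has 4. All arrays of 1 week lie on 1 slide, so week and slide cannot be told apart. The same VC RNA read on the MXD arrays and on the N-CE arrays of a week gave levels that differed by -0.09 to 0.24 at 1W, by -0.51 to 0.17 at 2W and by -0.47 to 0.16 at 3W over 9 genes, which sets the technical spread of these levels. The level was highest in MXD 1W for 7 of the 9 measured genes, all but Lcn2 and Hp.

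The level of Saa3 was 9.99 ± 0.07 in MXD 1W, and its readings lay above those of every other pool. The pools N-CE 3W (7.45 ± 0.25), VC 3W (7.32 ± 0.36), MXD 2W (7.02 ± 0.17), N-CE 2W (6.98 ± 0.07), MXD 3W (6.89 ± 0.14), VC 2W (6.68 ± 0.24) and N-CE 1W (6.66) followed, and each neighbour in this order overlapped with the next. VC 1W was lowest at 6.46 ± 0.15, below the readings of N-CE 1W. Between 1W and 3W the level of Saa3 differed by -3.10 in MXD and by 0.86 in VC. These levels hold the offset of background correction, which narrows differences between dim readings, and 3 of 4 VC 1W readings were well above background. Scaled to the 75th percentile without an offset, mean Saa3 levels were -4.51 in VC 1W and -2.53 in VC 3W. On that scale they were 0.95 in MXD 1W and -3.29 in MXD 3W.

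S100a8 levels of MXD and VC came together over the weeks. Vehicle levels of S100a8 were 8.84 ± 0.23, 9.78 ± 0.15 and 10.12 ± 0.10 at the 3 weeks in turn, and the MXD levels were 11.51 ± 0.37, 10.60 ± 0.00054 and 10.14 ± 0.05. The MXD 3W and VC 3W readings overlapped. The N-CE levels were 9.05 ± 0.11, 10.32 ± 0.12 and 9.84 ± 0.29, and the first of these overlapped with VC 1W. The order was therefore MXD 1W, MXD 2W, N-CE 2W, MXD 3W, VC 3W, N-CE 3W, VC 2W, N-CE 1W and VC 1W, in which the run from MXD 3W to VC 2W overlapped step by step.

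MXD levels of S100a9 were 12.98 ± 0.27, 10.77 ± 0.07 and 10.99 ± 0.12 at the 3 weeks in turn. N-CE 1W, at 11.56 ± 0.04, was the next highest of the 9 pools, with readings apart from all others, and N-CE 2W and N-CE 3W were at 10.81 ± 0.11 and 10.77 ± 0.02. VC 1W was lowest (10.54 ± 0.06), and VC 2W and VC 3W were at 11.02 ± 0.20 and 11.19 ± 0.13. Below N-CE 1W the order was VC 3W, VC 2W, MXD 3W, N-CE 2W, N-CE 3W, MXD 2W and VC 1W. The readings of VC 3W, VC 2W and MXD 3W overlapped, as did those of N-CE 2W, N-CE 3W and MXD 2W.

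The stefins differed from the other genes in the vehicle pools. Vehicle levels of Stfa3 were 11.45 ± 0.18, 11.26 ± 0.15 and 10.16 ± 0.30 at the 3 weeks in turn, so that VC 3W was below VC 1W by more than the spread of readings. Those of Stfa1 were 10.60 ± 0.15, 11.52 ± 0.36 and 10.02 ± 0.27. In MXD, Stfa3 went from 13.54 ± 0.22 at 1W to 10.61 ± 0.17 and 10.02 ± 0.11, and Stfa1 from 13.35 ± 0.27 to 10.87 ± 0.11 and 10.03 ± 0.11. At 3W the readings of all 3 pools overlapped in neighbouring order for both stefins.

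The remaining genes varied less. Saa1 (probe A_52_P318673) had a level of 8.37 ± 0.04 in MXD 1W and between 7.48 and 7.61 in the other 8 pools, whose neighbours all overlapped. Lcn2 levels lay between 6.96 and 7.08, and all neighbours in their order overlapped. Saa2 levels lay between 6.44 and 6.74, with MXD 1W highest. With 75th percentile scaling, which adds no offset, mean Saa2 levels ran from -4.86 in N-CE 3W to -3.70 in MXD 1W. Hp was between 13.43 and 13.84 in all pools but VC 3W (14.41 ± 0.25) and N-CE 3W (14.47 ± 0.10), which overlapped and stood above MXD 3W (13.84 ± 0.05).

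**Figure D2:**
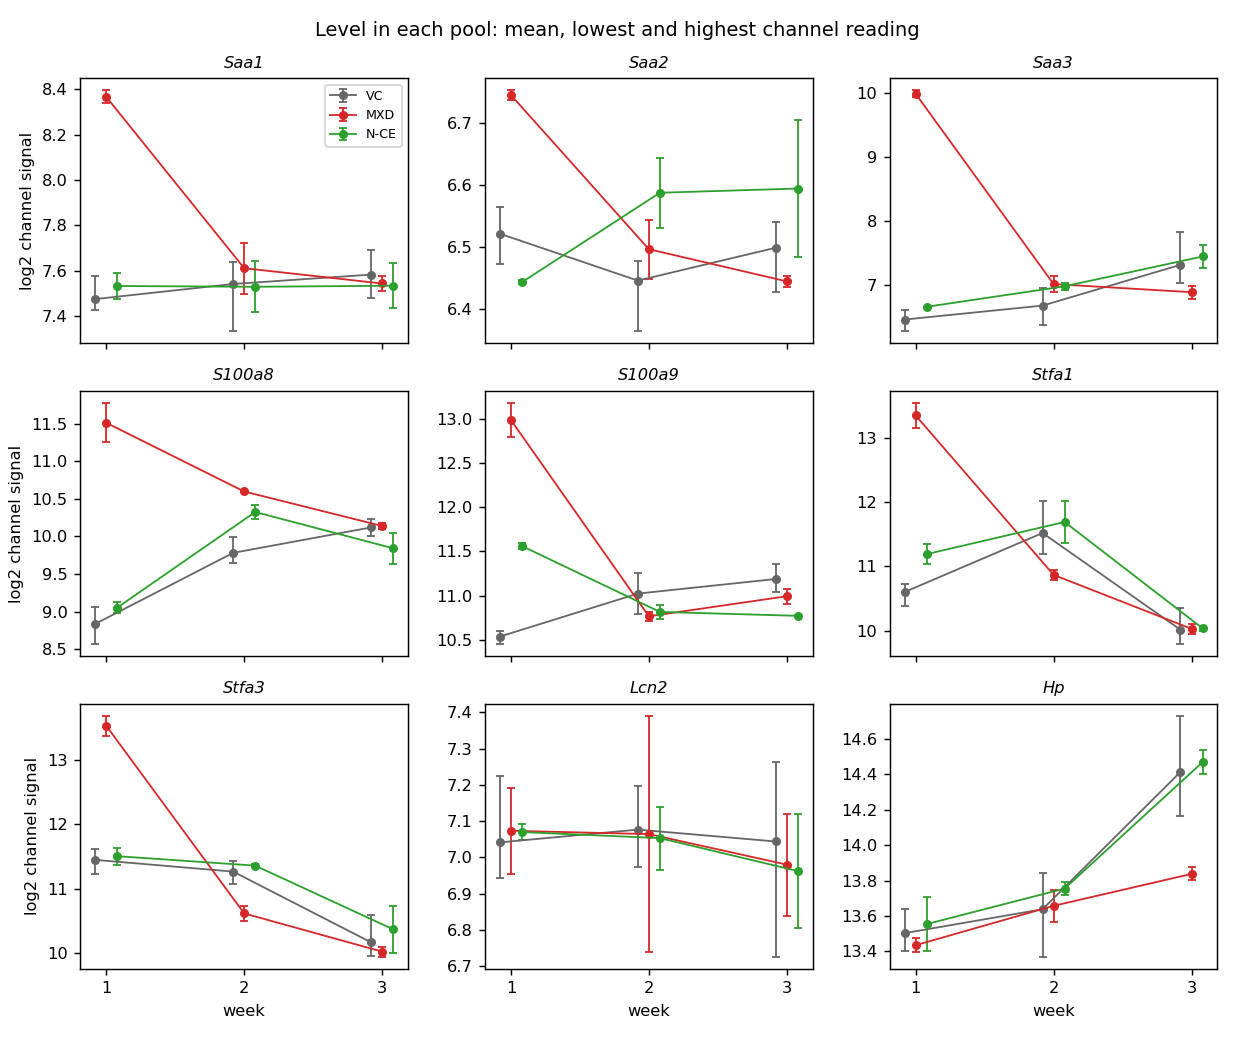
Level of 9 member genes (panels, each with its own vertical axis) as log2 channel signal against week, for VC (grey), MXD (red) and N-CE (green). Points are means of 4 VC or 2 treated readings and bars run from the lowest to the highest reading. MXD 1W is highest in 7 panels, VC levels of S100a8 climb from 8.84 at 1W to 10.12 at 3W, and Hp in MXD at 3W (13.84) lies below VC (14.41).

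Genes related to the members were followed in 7 lists, chosen with earlier results of these data known. In MXD 1W, 29 of the 125 listed genes above background in at least 1 group were called higher and 0 lower, and in N-CE 1W, 2 of 118 were called higher and 5 lower. With normexp and the fold limit on each array, 18 of these 29 genes were still higher in MXD 1W, and no listed gene was higher in N-CE 1W. Of all gene names, 0.848% were called higher and 0.855% lower in MXD 1W, and 0.362% higher and 1.85% lower in N-CE 1W. These shares include gene names below background, while the list counts leave such genes out, so the 2 are not on the same base. Since the lists were chosen with these values known, the counts describe them only.

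Stefin and cystatin genes outside the set were called higher in 6 of 9 cases in MXD 1W and in 0 of 8 in N-CE 1W. The median log2 fold of the list was 1.15 in MXD 1W. Stfa2l1 was 9.68-fold, Stfa2 8.28-fold, 2010005H15Rik 2.88-fold, BC100530 2.22-fold and Csta 2.04-fold higher in MXD than in VC. Gm5483 was not well above background in VC and was at least 1.49-fold higher, and with normexp it did not pass the fold limit on both arrays, which left 5 of the 6. The highest of the list in N-CE 1W was 2010005H15Rik, with a log2 fold of 0.55.

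Stfa2 and Stfa2l1 were the only genes of the list called in MXD 2W and MXD 3W, and they are named here after their values were seen. The log2 folds of Stfa2 were 0.73 and 0.74 at 2W and 1.45 and 1.30 at 3W. Those of Stfa2l1 were 1.28 and 0.77 at 2W and 1.54 and 1.35 at 3W. Stfa1 and Stfa3 had mean log2 folds of 0.24 and 0.10 in MXD 3W and were not called there, so these members of the same cluster parted from Stfa2 and Stfa2l1 after 1W. With normexp neither passed the fold limit on both arrays in MXD 2W, where the mean log2 folds were 0.34 for Stfa2 and 0.77 for Stfa2l1. In MXD 3W they were 0.48 and 1.01, and of the pair Stfa2l1 passed. No test of that difference was possible with 1 pool per group.

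Neutrophil granule and surface genes were called higher in 9 of 28 cases in MXD 1W, with a median log2 fold of 0.35. With normexp, 2 of the 9 remained, Clec4d and Chil3 (named after their values were seen), and the mean log2 fold was 0.38 for Clec4e, 0.42 for Csf3r and 0.36 for Fpr2. Before that correction the highest were Clec4d (4.38-fold) and Clec4e (3.55-fold), C-type lectin receptors of myeloid cells. The collagenase Mmp8 and the chemokine receptor Cxcr2 were not well above background in VC and were at least 1.21-fold and 1.26-fold higher. Csf3r, the receptor of granulocyte colony-stimulating factor, was 2.05-fold and the formyl peptide receptor Fpr2 1.77-fold higher. In N-CE 1W, Fpr2 (1.93-fold) and Clec4d (1.76-fold) were called higher, and neither call held with normexp, which gave log2 folds of 0.39 and 0.58. Padi4, a citrullinating enzyme, was called lower with a log2 fold of -1.13. In MXD 2W Padi4 was called higher, with a log2 fold of 1.24. The hair follicle markers had median log2 folds of -2.81 in N-CE 1W and 1.22 in MXD 2W. The medians of the neutrophil list were 0.31 and -0.53 in these comparisons. The part of the hair follicle in the Padi4 values was not tested.

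Several of the neutrophil markers were dim, among them the granule genes Elane, Camp and Ltf. Of 8 neutrophil markers on the array, 3 were well above background in every VC 1W reading, 5 in every MXD 1W reading and 3 in every N-CE 1W reading. Elane was not well above background in any pool, and Camp and Ltf were not in MXD 1W. Mmp8 and Cxcr2 were the markers above background in MXD 1W but in no VC 1W reading. The 3 markers above background in every VC 1W reading were Mpo, Csf3r and Retnlg. Mpo, a granule marker above background in every reading of all pools, had log2 folds of -0.32 and 0.09 in MXD 1W. Those of Csf3r were 1.20 and 0.88, and those of Retnlg 0.40 and 0.69. The log2 of the summed level of the 8 markers was 9.62 to 9.70 in MXD 1W, 9.498 to 9.54 in VC 1W and 9.57 in N-CE 1W. These sums include the markers not above background, whose levels hold the offset added in background correction. Elane, for example, had a mean level of 6.17 in VC 1W and 5.98 in MXD 1W. Closeness of the sums is therefore not read as equal neutrophil content. The part of neutrophil number in the members' values was not tested.

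Neutrophil attractants and cytokines were called higher in 4 of 15 cases in MXD 1W and in 0 of 14 in N-CE 1W. Cxcl5, a CXC chemokine that draws neutrophils, was not well above background in VC and was at least 4.93-fold higher in MXD. Cxcl3 was at least 1.502-fold higher. Cxcl1 was 1.92-fold and Il36a, a cytokine of keratinocytes, 1.86-fold higher, but with normexp their log2 folds were 0.40 and 0.56 and neither passed the fold limit on both arrays. Il1b had the largest difference of the list in N-CE 1W, a log2 fold of -0.58 that was not called. In MXD 2W the direction was the other one, and 5 of 13 genes were called lower (Il36g, Il36b, Il36a, Il1a and Ccl2, named after their values were seen), with log2 folds from -1.63 for Il36g to -0.78 for Ccl2, beside the 6.87% of all gene names called lower. Lower calls in MXD 2W were not particular to this list. Of the neutrophil granule and surface genes 4 of 24 were called lower and 1 higher, the latter being Padi4. Of the other acute phase genes 6 of 18 were called lower and 1 higher. Of the receptors and partners 5 of 18 were called lower, and of the upstream transcription factors 2 of 15. Of the barrier alarmins and wound keratins 7 of 21 were called higher and 5 lower.

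Barrier alarmins and wound keratins were called higher in 10 of 22 cases in MXD 1W, with a median log2 fold of 0.47. Sprr2d (8.63-fold) and Lce3f (7.43-fold) encode cornified envelope proteins, and Krt16 (6.86-fold) is a keratin of wounded epidermis. Reg3g, an antimicrobial lectin, was not well above background in VC and was at least 1.30-fold higher. The protease inhibitor Slpi was 1.95-fold and Chi3l1 1.74-fold higher. In N-CE 1W, 3 of 21 were called lower: Sprr2h and Sprr1a with log2 folds of -0.83 and -0.92, and S100a7a, which was not well above background in N-CE and was at least 1.88-fold lower.

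The other lists held few or no calls at 1W. Of the other acute phase genes, 0 of 19 were called in MXD 1W, where Orm3 was lowest with a log2 fold of -0.81, and 1 of 18 was called in N-CE 1W, the metallothionein Mt2 with a log2 fold of -0.99. Of the receptors and partners, 0 of 17 and 0 of 18 were called, and Tlr4, a receptor for calprotectin, had log2 folds of 0.48 in MXD 1W and 0.57 in N-CE 1W. Of the upstream transcription factors, 0 of 15 were called in either comparison, with the largest values at Bcl3 (0.48) in MXD 1W and Irf1 (0.39) in N-CE 1W. Liver markers were dim, with Apoa1 and Ttr below background in both comparisons, and Alb had log2 folds of -0.50 in MXD 1W and 0.48 in N-CE 1W. Markers of keratinocytes (5 of 5), hair follicle (4 of 4) and fibroblasts (4 of 4) were above background in VC 1W in at least 1 reading, which fits the labelled skin.

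**Figure D3:**
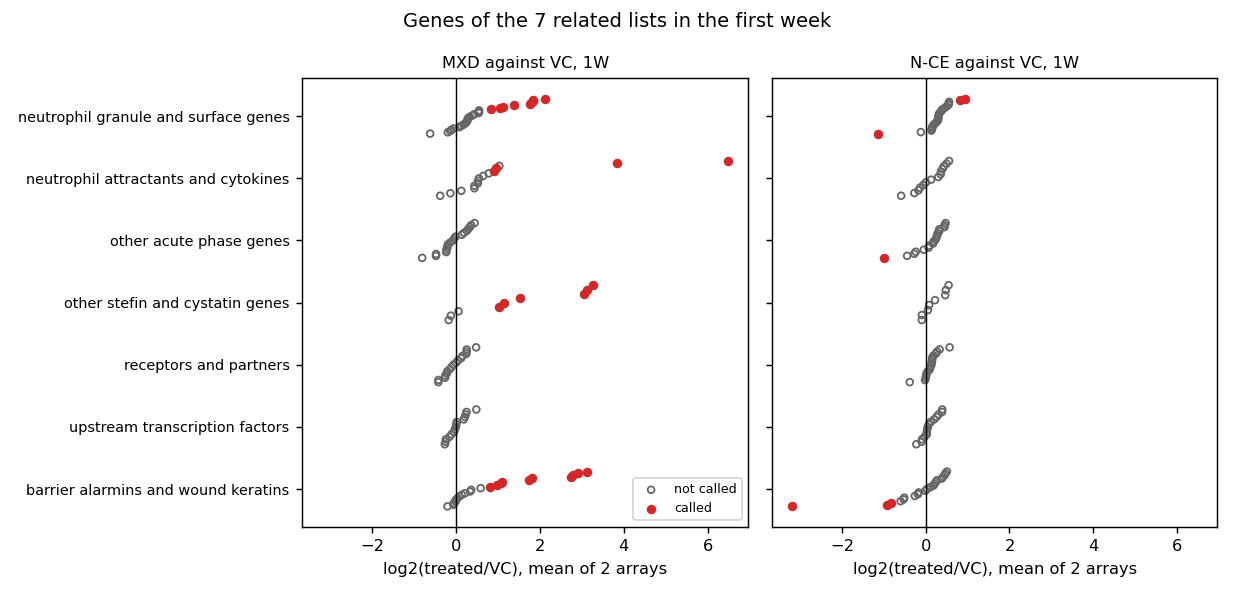
Log2(treated/VC), mean of 2 arrays, of the listed genes above background in at least 1 group, by list (rows) in MXD 1W (left) and N-CE 1W (right), red where called. The red points of MXD 1W lie to the right of 0 in 4 lists, with Cxcl5 farthest out although its VC signal was below background, and N-CE 1W has 2 red points to the right and 5 to the left.

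Outside the set, the profiles over the 12 arrays were compared with the median profile of the 10 members by Pearson's r among 25849 probes with a value on every array and above background in at least 1 group of MXD 1W. Among the 8 gene names with the highest r were Timp1, Lce3f, Tmem8 and NAP109359-1 (0.95 each) and Krt16 (0.94). The 12 arrays hold 6 dye-swap pairs and share VC pools, so the r values carry no p. Timp1, an inhibitor of matrix metalloproteinases, had a log2 fold of 1.22 ± 0.16 in MXD 1W. The others were Reg3g, Gm5483 and Chrng, which passed the filter through the MXD pool of 1W alone and were listed at a log2 fold of 0 in 4 of the 6 comparisons. Their likeness to a profile that peaks in MXD 1W was therefore set by the filter, and no order is read from it. Among the members themselves r was from 0.92 for S100a9 to 0.97 for Stfa1 in the 6 called genes, 0.68 for Saa2, 0.12 for Hp and 0.0017 for Lcn2, and each member is part of the median.

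**Figure D4:**
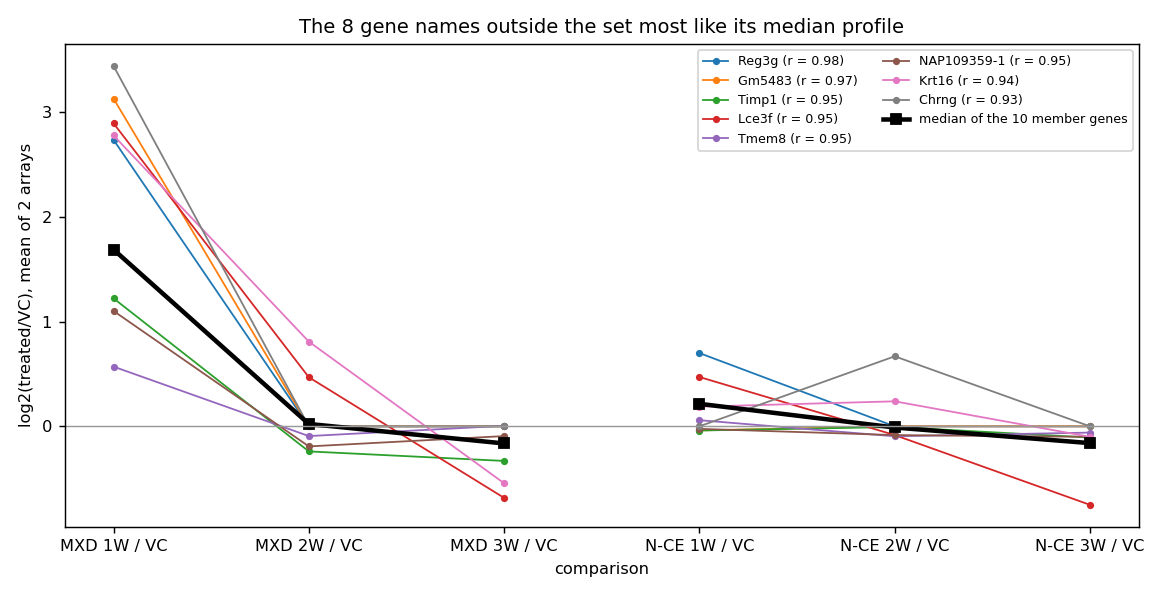
Log2(treated/VC), mean of 2 arrays, of the 8 gene names most like the members (coloured lines, r in the key) and of the members' median (black) over the 6 comparisons. Every line is highest in MXD 1W, where the median was 1.69, and lies nearer 0 elsewhere, where Reg3g, Gm5483 and Chrng were mostly below background.

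The sequence before the start of each member was searched for 3 motifs on both strands, in RefSeq promoters of GRCm38.p6. A promoter was found for 9 of the 10 members, all but Hp, and the 250 bases before the start were used. The C/EBP motif (TTGCNNAA) was in 7 of these 9 (Saa1, Saa2, Saa3, S100a9, Lcn2, Stfa1 and Ngp), against 10.8% of 27025 genes. Saa1 and Saa2 have closely alike windows with the same match, 182 and 183 bases before the start, so they are not separate cases. Factors of the C/EBP family act in acute phase and granulocyte genes. The kB consensus, a binding motif of NF-kB, was in 3 of the 9 (Saa1, Lcn2 and Ngp), against 18.7% of genes, and the STAT motif (TTCNNNGAA) in 0 of the 9, against 8.13%. No match in these windows overlapped another motif. A match is a description of letters and not a site in use.

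The promoters of Saa3, Saa1, S100a9 and Stfa1 are printed because they are the genes called in MXD 1W that hold the C/EBP motif, shown in capitals. It began 99, 182, 236 and 109 bases before the start, on the opposite strand in Saa3. In Saa1 the second run of capitals, 91 bases before the start, is the kB match. The windows are chr7:46715677-46715926 (minus strand) for Saa3, chr7:46742981-46743230 (minus strand) for Saa1, chr3:90695722-90695971 (minus strand) for S100a9 and chr16:36276898-36277147 (plus strand) for Stfa1.
Saa3: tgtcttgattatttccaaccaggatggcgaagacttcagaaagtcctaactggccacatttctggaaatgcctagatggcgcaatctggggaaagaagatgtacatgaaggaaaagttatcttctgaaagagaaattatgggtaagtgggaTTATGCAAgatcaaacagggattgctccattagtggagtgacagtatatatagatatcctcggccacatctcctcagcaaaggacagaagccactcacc
Saa1: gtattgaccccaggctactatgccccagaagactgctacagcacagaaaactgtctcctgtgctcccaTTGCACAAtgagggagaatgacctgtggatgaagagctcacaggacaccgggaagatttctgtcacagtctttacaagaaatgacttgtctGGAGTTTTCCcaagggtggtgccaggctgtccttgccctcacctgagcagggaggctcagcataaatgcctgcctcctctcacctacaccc
S100a9: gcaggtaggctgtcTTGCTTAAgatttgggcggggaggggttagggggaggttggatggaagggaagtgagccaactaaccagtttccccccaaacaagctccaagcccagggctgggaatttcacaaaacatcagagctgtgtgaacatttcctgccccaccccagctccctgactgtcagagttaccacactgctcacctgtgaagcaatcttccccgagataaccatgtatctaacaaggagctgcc
Stfa1: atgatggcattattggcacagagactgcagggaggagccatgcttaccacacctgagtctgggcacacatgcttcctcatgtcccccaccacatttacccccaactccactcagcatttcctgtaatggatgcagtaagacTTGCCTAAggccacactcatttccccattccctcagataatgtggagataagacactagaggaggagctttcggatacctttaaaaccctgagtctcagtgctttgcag
S100a8 and Stfa3, called in MXD 1W like these genes, held none of the 3 motifs in their windows, and Lcn2, with C/EBP and kB matches, was not called in any comparison. Stfa1 and Stfa3 shared 154 of 248 promoter bases without gaps.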

How the data were processed

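RNA pools of whole back skin were measured on 12 Agilent 2-colour arrays. The authors deposited Feature Extraction output for each array (12.0.3.1 per the file headers, 11.0.1.1 per the labels) and a matrix of log ratios. The deposited log10 ratio is Cy5 over Cy3 after background subtraction and LOWESS dye normalization by the authors' software, and the deposited p-value comes from its error model for a spot. Signal intensity was deposited raw and processed. The deposited matrix holds the log10 of processed Cy5 over processed Cy3 intensity, to within 5e-09.

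Python 3.11.15 (numpy 2.4.6, pandas 2.3.3) and R 4.3.3 (limma 3.58.1) were used. Control spots and outlier spots were left out, ratios were turned to treated/VC on the log2 scale and spots of a probe averaged. Means and SDs are over the 2 arrays of a dye swap. A gene is its brightest probe. Levels are channel values after normexp (offset 50), loess and Aquantile. For a probe dim in 1 group, an at-least fold was set against the lowest signal well above background in the Aquantile values. No saturated spots were found, 57.0% to 69.6% of spots of a channel were well above background, and precision is limited by the number of arrays. With 1 pool per group there was no test over samples.

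The members and lists were chosen with earlier results of these data known. Every member was named with every probe. From each list the genes called in MXD 1W or N-CE 1W were named (the 4 highest and 2 lowest if over 6), otherwise the largest absolute log2 fold above background, and for likeness the 8 highest of the 10 r values compared, since 1 of the 10 is not reported here. Alternatives were normexp with loess, the matrix, each array alone, arithmetic means, outlier spots kept, no P, a symmetric 1.5-fold limit, probes above background only, the median over probes, 75th percentile scaling and likeness over the 6 comparison means.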

Additional observations from a re-analysis of the deposited data

Results flagged for a closer look

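For some members every array of a treatment pointed one way in one week and the other way in another week. These differences between weeks were not tested, week and slide cannot be told apart, and several rest on values near 0. In MXD, the log2 fold of Saa3 at 1W minus that at 3W was 5.30 and at 2W minus 3W 1.68. The differences were 2.95 and 1.01 for S100a8 over the same weeks. S100a9 in MXD differed by 2.80 between 1W and 2W and by 2.79 between 1W and 3W. Stfa1 in MXD differed by 3.21 between 1W and 2W and by -0.61 between 2W and 3W, and Stfa3 by 2.66 between 1W and 2W. Saa2 in MXD differed by 0.82 between 1W and 3W, and Hp by 0.62 between 2W and 3W.

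In N-CE, the difference between 1W and 3W was 1.22 for Saa3, 0.47 for S100a8, 1.45 for S100a9, 0.14 for Hp and 0.81 for Stfa1. The difference between 1W and 2W was 0.70 for Stfa1 and 0.082 for Hp, and that between 2W and 3W was 0.73 for S100a8.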

How the results depend on the processing

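No called fold of a member turned its direction under any alternative run. With normexp and loess the median over the members in MXD 1W was 1.49 and in MXD 3W -0.083. Calls under normexp used the fold limit on each array and no P. The members so called in MXD 2W were 1 higher (S100a8) and 1 lower (Stfa3), and the listed genes called higher were 18 in MXD 1W and 0 in N-CE 1W. With the deposited folds on each array and no P, 2 members were called higher in N-CE 1W, 1 lower in MXD 2W (Stfa3), and 1 listed gene lower in MXD 1W. The median in MXD 1W was 1.47 over a gene's probes and 2.15 over probes above background only. With each array alone, members called higher were 2 to 2 in N-CE 1W and 0 to 1 in N-CE 2W, members called lower were 0 to 2 in MXD 2W and 0 to 1 in MXD 3W, and the median was -0.059 to -0.025 in N-CE 2W, -0.14 to -0.064 in MXD 3W and -0.16 to -0.014 in N-CE 3W. Likeness over the 6 comparison means shared 5 of its 10 highest names. Of 57 fold values of the members, normexp moved 14 beyond their SD. Called folds were among those moved: Saa1, Saa3, S100a8 and Stfa1 in MXD 1W, S100a9 in N-CE 1W, and Saa3 and S100a8 in MXD 2W. Normexp changed the sign of 9 values, and none of these 9 was a called fold. No paired analysis was possible because each comparison is 1 pool against 1 pool, and the replicate numbers name the arrays of a dye swap, where each ratio already pairs both pools. The causes of these shifts were not tested. Folds of dim probes depend on the background correction: the Saa3 fold in MXD 1W was 29.1 from the deposited ratios and 10.6 with normexp.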
